A study of Mus musculus with 2 samples.

Results

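Chemokines are small secreted proteins that direct the movement of leukocytes, and their receptors are G protein-coupled receptors of the cell surface. The genes described are 56 of the 21853 protein-coding genes of the mouse annotation (GENCODE M21, mm10). They are those whose symbol is Ccl, Cxcl, Ccr or Cxcr followed by a number, together with Cx3cl1, Cx3cr1 and Ackr1 to Ackr4, with 1 CXC receptor gene not analysed here. They comprise 23 CC ligands, 13 CXC and CX3C ligands, 10 CC receptors, 6 CXC and CX3C receptors and 4 atypical receptors. Chromatin accessibility at these genes was read by ATAC-seq, which uses a transposase to cut open DNA and tag the ends for sequencing. The samples were 1 group of 2 libraries of primary haematopoietic stem cells. The mice were C57BL/6J adults, 5 to 6 weeks old, with no treatment or genetic change named. Both libraries carry the same donor identifier and the labels name no sort markers. Whether they came from separate animals is therefore unknown, and the spread between them may be technical. A starting quantity of 50000 cells is given for replicate 2 and none for replicate 1.

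The class names describe the spacing of cysteines near the start of the ligand. Signalling receptors couple mainly to inhibitory G proteins and drive directed migration, while atypical receptors bind and remove ligand without that coupling. In bone marrow, chemokines of stromal cells hold haematopoietic stem and progenitor cells in their niches, and inflammatory chemokines call mature myeloid and lymphoid cells out of the blood. Most chemokine genes lie in a few chromosomal clusters and many are induced only on stimulation.

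A peak is a stretch of the genome with more insertions than its surroundings, and its signal is the authors' own value, deposited with no stated scaling. Signals were therefore ranked only within a peak list, and values from several lists are given side by side. The principal list was the conservative list thresholded on the irreproducible discovery rate (IDR), which compares both libraries and held 31532 regions after overlapping peaks were merged. The IDR lists of replicate 1 and replicate 2 held 34588 and 22434 regions, and the more permissive pseudoreplicated lists held 78665 and 58113. A gene had a promoter peak when the summit of a region lay within 1 kb of one of its protein-coding transcription start sites (TSS). Of 12 markers of haematopoietic stem cells, 6 (50%) had a promoter peak in the conservative list, against 51.5% of all protein-coding genes. Among the 6 were Kit, Hlf, Meis1 and Cd34. All 12 had a promoter peak in the pooled pseudoreplicated list, made from both libraries, against 66% of all genes. Ly6a, Slamf1, Procr, Mecom, Fgd5 and Tek were the markers without one in the conservative list.

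The promoters of highest signal among these genes and the sequence under them are shown first. Some distal regions near these genes had higher signals and are given further below. Each is the reference sequence of GRCm38.p6 (mm10) around the summit, 5′ to 3′ on the + strand, with untranslated bases left out and motif matches in capitals. The Ackr3 stretch ends just before the 5′-most start site and holds the TATA letters (TATAAA). The Cxcl10 stretch holds an AP-1 match (TGANTCA), and those of Ccl2 and Cxcl9 hold no match to the letters searched. The Ccl25 and Cx3cl1 summits lay wholly in untranslated sequence and are not printed.
Ackr3, chr1:90203950-90203979: agaggcactttcccgcagtgtaTATAAAag
Ccl2, chr11:82035471-82035570: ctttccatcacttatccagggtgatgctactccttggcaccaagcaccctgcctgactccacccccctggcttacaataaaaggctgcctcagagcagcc
Cxcl10, chr5:92348910-92349010: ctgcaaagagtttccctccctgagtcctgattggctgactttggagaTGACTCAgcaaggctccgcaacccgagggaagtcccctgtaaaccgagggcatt
Cxcl9, chr5:92327506-92327606: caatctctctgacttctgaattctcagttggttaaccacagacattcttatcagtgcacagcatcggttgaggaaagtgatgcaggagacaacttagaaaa

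Promoter peaks were found at a smaller share of chemokine and receptor genes than of protein-coding genes in general. In the conservative list 12 of the 56 genes had a promoter peak, or 21.4% (95% Wilson interval 12.7 to 33.8%, which covers counting error only), against 51.5% of all protein-coding genes. The share was 23.2% (13 genes) in the IDR list of replicate 1, against 52% of all genes. It was 14.3% (8 genes) in that of replicate 2, against 45.6%. In the pseudoreplicated lists the counts rose to 24 genes in replicate 1, against 63.4% of all genes, and 16 genes in replicate 2, against 61.8%. The pseudoreplicated list of both libraries held 25 of the 56, or 44.6%, against 66% of all genes. No peak list used here had a promoter peak for the remaining 31 genes (55.4%), against 32.6% of all genes. Lower accessibility in every cell and open chromatin in fewer cells cannot be told apart in these bulk libraries.

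**Figure D1:**
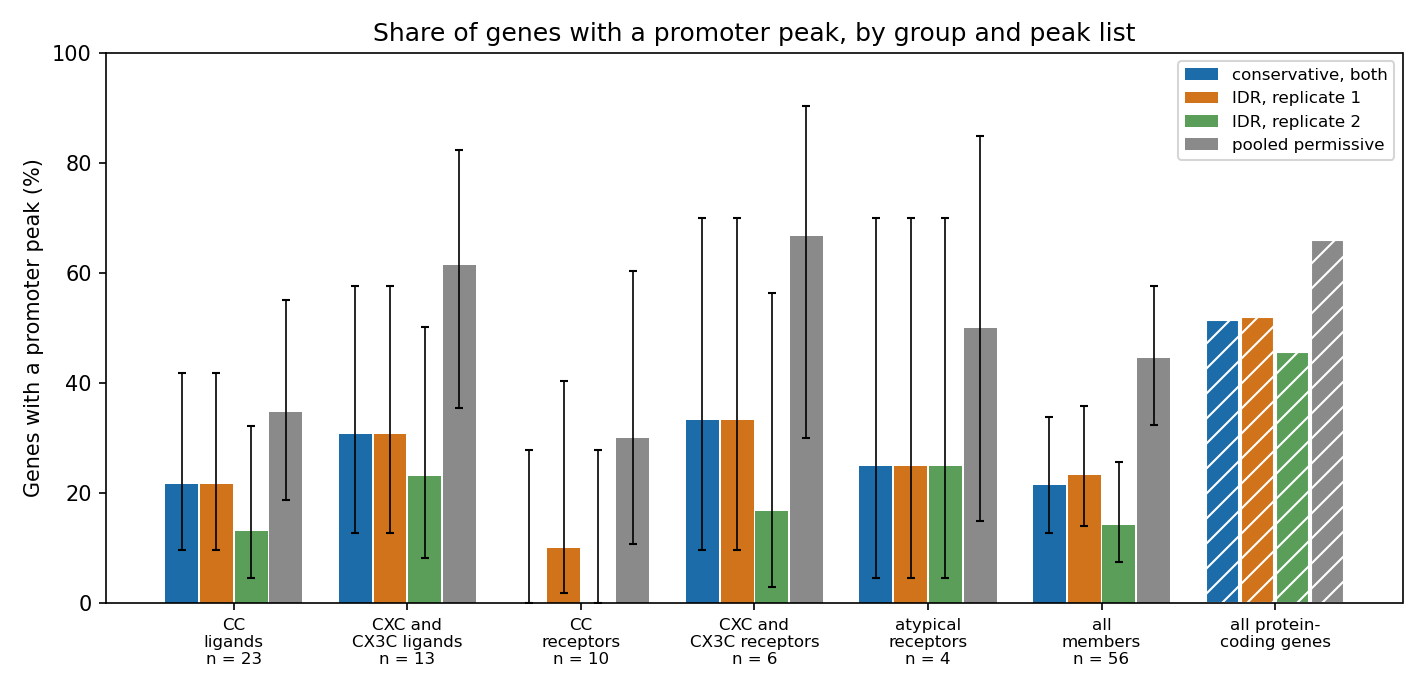
Share of genes with a promoter peak (%, vertical axis) by gene group and peak list. Solid bars are chemokine and receptor genes with 95% Wilson intervals, hatched bars are all protein-coding genes; in each of the 4 lists the share over all 56 members (21.4, 23.2, 14.3 and 44.6%) is below the share of all genes.

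The peaks that were present were mostly weak. The median promoter signal of the 12 genes in the conservative list was 7.46 (range 4.82 to 10.7), against 9.81 over all genes with a promoter peak, and 9 of the 12 were below that value. The regions were also narrower, with a median width of 628 bp against 875 bp. In the IDR list of replicate 1 the median was 7.93 against 10.8, and in that of replicate 2 it was 7.30 against 8.01. When regions at or below the median signal of the conservative list were dropped, 4 of the 56 genes kept a promoter peak (Ackr3, Ccl2, Ccl25 and Cx3cl1), or 7.14%, against 35.0% of all genes.

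Among the CC ligands, 5 of 23 had a promoter peak in the conservative list (21.7%, 95% Wilson interval 9.66 to 41.9%), against 51.5% of all genes. The highest was at Ccl25, a ligand of thymus and small intestine that acts through Ccr9. Its region, chr8:4324983-4325752, had a signal of 10.7, with 11.4 in replicate 1 and 8.81 in replicate 2. It ranked at percentile 62.2, 57.7 and 62.4 of the promoter signals of these lists, so both libraries placed it near the middle of all genes. Its summit lay 63 bp upstream of the Ccl25 start site but in an untranslated region of Elavl1, a neighbouring RNA-binding protein gene whose TSS is also within 1 kb. The peak therefore cannot be assigned to Ccl25 alone, and without promoters shared in this way 11 of the 56 genes had a peak.

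Ccl2, the main attractant of monocytes through Ccr2, had a region at chr11:82035292-82035693 with its summit 50 bp upstream of the start site, in an intron of Gm17268. Its signal was 9.96 in the conservative list, 8.31 in replicate 1 and 9.44 in replicate 2. The replicates placed it differently, at percentile 21.8 of promoter signals in replicate 1 and 71.0 in replicate 2. Ccl3 and Ccl4, neighbouring inflammatory ligands, were weaker. The Ccl3 region (chr11:83649090-83649872, summit 119 bp upstream) had a signal of 6.997, with 8.62 in replicate 1 and 5.13 in replicate 2. Its rank went the other way from that of Ccl2, at percentile 25.0 in replicate 1 and 5.94 in replicate 2. The Ccl4 region (chr11:83662192-83662844, summit 171 bp upstream) was the lowest of the 12, with a signal of 4.82 at percentile 1.64. The IDR list of replicate 1 held it at 6.08, whereas for replicate 2 only the pseudoreplicated list did, at 4.54. Ccl24, an eosinophil attractant that binds Ccr3, had a region at chr5:135572998-135573390 with its summit 149 bp upstream and a signal of 6.18. It was likewise in the IDR list of replicate 1 (7.85) and only in the pseudoreplicated list of replicate 2 (4.75).

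Of the other CC ligands, 3 had a promoter peak only in permissive lists. Ccl9 and Ccl6 are ligands of Ccr1 made by mouse myeloid cells. Ccl9 had 3.37 in replicate 1 and 3.81 in replicate 2, while Ccl6 had 4.70 in replicate 1 and no peak in replicate 2. Ccl27a, a skin ligand of Ccr10, had 6.91 in replicate 1 and none in replicate 2. Its value is uncertain, because its promoter has 8 near-identical copies elsewhere in the reference (at least 95% identity over 90% of the window), and reads may be split among them. The other 15 CC ligands had no promoter peak in any list. They included the monocyte attractants Ccl7, Ccl8 and Ccl12, the eosinophil attractants Ccl11 and Ccl26, and the lymph node ligands Ccl19, Ccl21a and Ccl21b. They also included Ccl17 and Ccl22, which bind Ccr4, the Ccr6 ligand Ccl20, the Ccr10 ligands Ccl27b and Ccl28, the Ccr8 ligand Ccl1, and Ccl5, a T cell and platelet product. For Ccl19, Ccl21a, Ccl21b and Ccl27b near-identical promoter copies were found too, so a missing peak there is uncertain.

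Among the CXC and CX3C ligands, 4 of 13 had a promoter peak in the conservative list (30.8%, 95% Wilson interval 12.7 to 57.6%). The share of all genes, 51.5%, lay within that interval. Cx3cl1, a ligand tethered to the membranes of endothelium and neurons, had the highest. Its region (chr8:94771932-94772347, summit 34 bp upstream of the nearest start site) had a signal of 8.39, with 8.85 in replicate 1 and 7.27 in replicate 2. Cxcl10 and Cxcl9, neighbouring genes induced by interferon gamma whose products act through Cxcr3, were both accessible in both libraries. The Cxcl10 region (chr5:92348697-92349128) had its summit 71 bp upstream, in an intron of Art3, and a signal of 8.29, with 8.08 in replicate 1 and 7.11 in replicate 2. The Cxcl9 region (chr5:92327104-92327706) had its summit 523 bp inside the gene, in an intron, and a signal of 7.92, with 7.21 in replicate 1 and 7.32 in replicate 2. With a window of 500 bp in place of 1 kb, Cxcl9 was the gene lost. Cxcl2, a neutrophil attractant that acts through Cxcr2, had a broad region of 1161 bp (chr5:90902982-90904142, summit 202 bp upstream) with a signal of 6.33. It was in the IDR list of replicate 1 at 7.93 and only in the pseudoreplicated list of replicate 2 at 4.56.

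Outside the conservative list, weaker peaks were found at 4 further ligands of this class. Cxcl1, Cxcl3 and Cxcl5 are neutrophil attractants of the cluster that holds Cxcl2. Cxcl1 had 3.62 in replicate 1 and 3.33 in replicate 2, and Cxcl3 had 3.45 and 4.68. Cxcl3 was also in the less strict IDR list of both libraries, at 4.15. Cxcl5 had 3.68 in replicate 1, with the summit 994 bp upstream of the start site, and none in replicate 2. Permissive lists made from both libraries held a different Cxcl5 region, with its summit 159 bp inside the gene, at 3.42. Cxcl12, the marrow stromal ligand that retains haematopoietic stem cells, had 4.08 in replicate 1 and none in replicate 2. That Cxcl12 peak had its summit in an intron 144 bp from the start site. The B cell follicle ligand Cxcl13, the Cxcr6 ligand Cxcl16, and Cxcl14, Cxcl15 and Cxcl17, which are made mainly by epithelia, had none in any list.

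Receptor and ligand genes were counted separately, and the difference between them was not tested. Promoter peaks were found at 3 of 20 receptor genes in the conservative list (15%, 95% Wilson interval 5.24 to 36.04%) and at 9 of 36 ligand genes (25%, 13.8 to 41.1%), so the intervals overlap. The share of all genes in that list was 51.5%. None of the 10 CC receptors had a promoter peak in it, for which the interval reaches 27.8%. Ccr1, a receptor of neutrophils and monocytes for Ccl3, Ccl5, Ccl6 and Ccl9, was the nearest. Its region, with the summit 27 bp upstream of the start site, had a signal of 6.90 by the IDR list of replicate 1 and of 2.86 by the pseudoreplicated list of replicate 2. In the less strict IDR list of both libraries it had 6.65. Ccr9, the receptor of Ccl25, had 4.57 in replicate 1 and none in replicate 2. That peak also lay within 1 kb of a start site of Slc6a20a, an amino acid transporter gene. Ccr7, which guides cells to lymph nodes, had a peak only in lists made from both libraries, at 4.07. Ccr2 of monocytes, Ccr3 of eosinophils, and the lymphocyte receptors Ccr4, Ccr6, Ccr8 and Ccr10 lacked a promoter peak in every list.

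Of the CXC and CX3C receptors, 2 of 6 had a promoter peak in the conservative list (33.3%, against 51.5% of all genes). Cxcr3, a receptor of activated T and NK cells, had a region at chrX:101733761-101734446 with its summit 165 bp inside the gene and a signal of 6.75. In replicate 2 the same summit had 5.99 in the IDR list. In replicate 1 that region had 6.53 in the pseudoreplicated list, while the IDR list held a different region 802 bp inside the gene, at 6.51. Cx3cr1, the monocyte and microglia receptor of Cx3cl1, had a region at chr9:120068069-120068729 with a signal of 6.35. The IDR list of replicate 1 gave it 7.33, and the pseudoreplicated list of replicate 2 gave it 4.67. The region's summit lay 43 bp upstream of an internal start site of Cx3cr1, and no peak lay at its 5′-most start site. Cxcr2, the neutrophil receptor, and Cxcr5, the B cell follicle receptor, had 4.79 and 4.35 in the pseudoreplicated list of replicate 1 and none in replicate 2. Cxcr1 and Cxcr6 lacked one in every list.

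Of the 4 atypical receptors Ackr3, which binds and removes Cxcl12, had the only peak in the conservative list (25%, against 51.5% of all genes). Its region (chr1:90203791-90204271) covered its 2 start sites, with the summit 6 bp upstream of the nearer one, an internal site. Its signal was 10.1, with 12.5 in replicate 1 and 8.69 in replicate 2, at percentile 54.0, 69.8 and 60.6 of promoter signals. Ackr3 and Ccl25 were thus above the median of accessible promoters in both libraries. Ackr1, an atypical receptor of erythroid cells and endothelium, had 4.95 in replicate 1 and none in replicate 2. The scavenger receptors Ackr2 and Ackr4 had no promoter peak in any list.

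**Figure D2:**
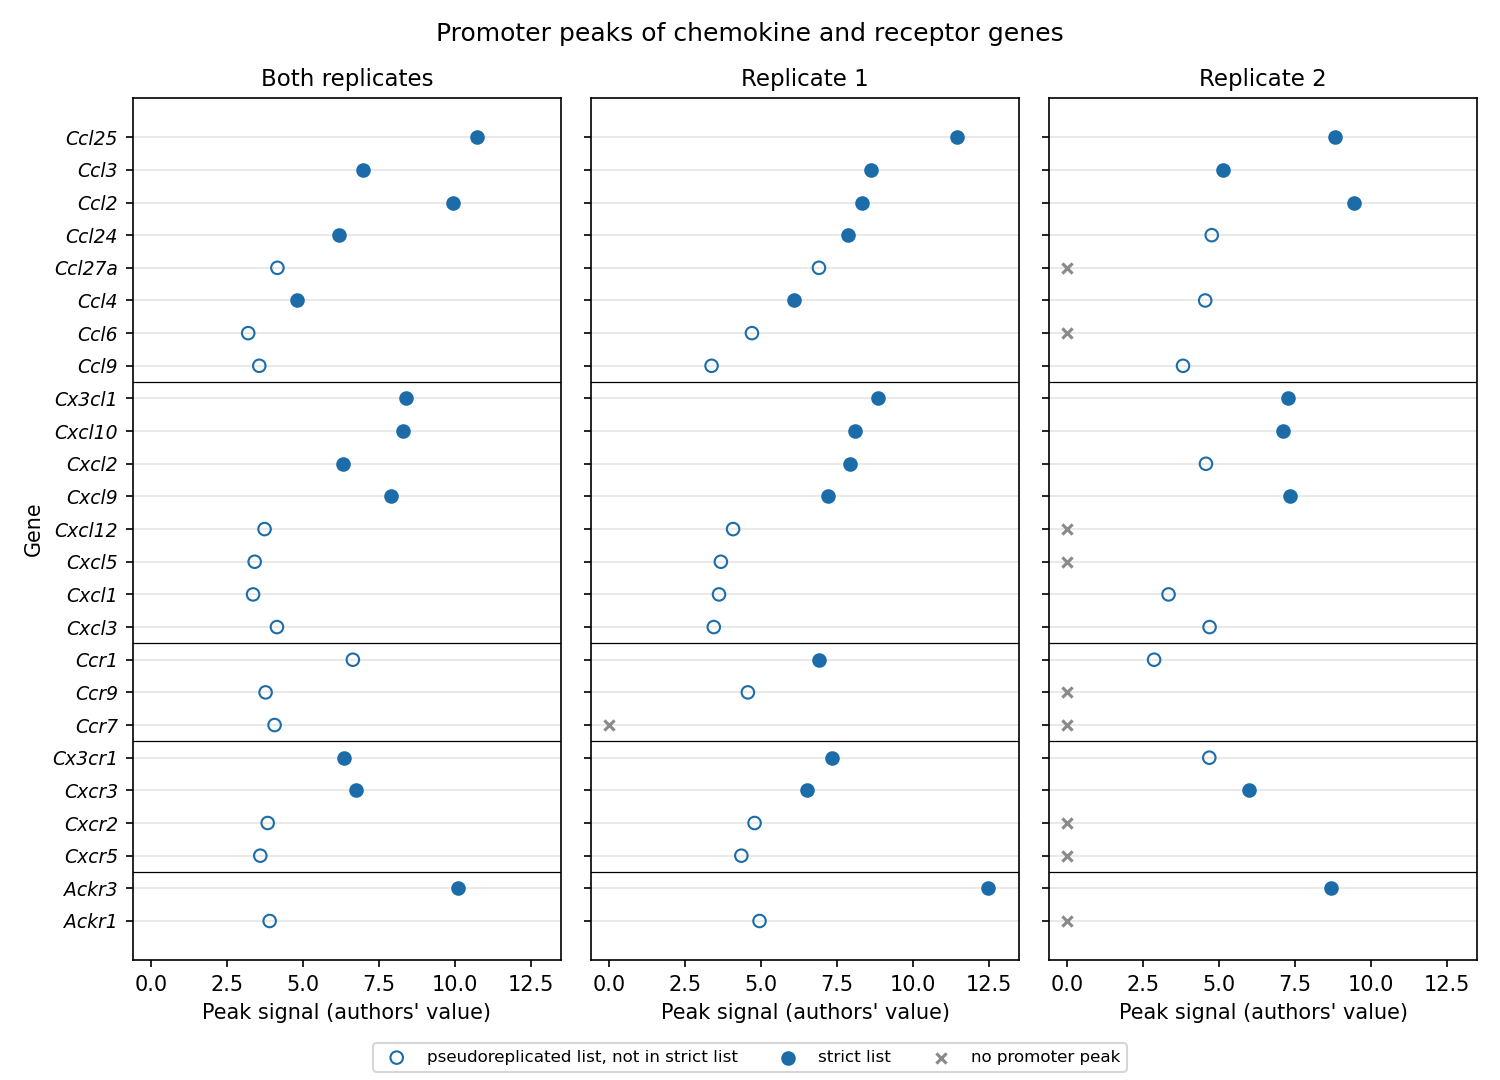
Authors' peak signal (horizontal axis, no stated unit) at the 25 chemokine and receptor promoters with a peak in any list, by list. Filled points are strict lists (conservative list of both libraries, IDR list of each replicate), open points are pseudoreplicated lists where the strict list has no peak, crosses at 0 mark no promoter peak and lines part the groups; Ccl25, Ackr3 and Ccl2 lead with 10.7, 10.1 and 9.96, and 8 genes have an open point in replicate 1 and a cross in replicate 2.

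Between the deposited lists of the libraries, the differences ran one way. By the IDR lists, 5 genes had a promoter peak in replicate 1 and not in replicate 2 (Cxcl2, Ccl24, Ccl4, Ccr1 and Cx3cr1), or 8.93%, against 7.74% of all genes. No gene had the reverse, against 1.39% of all genes. All 5 were in the permissive list of replicate 2, so none was unseen in that library. Most genes with this pattern were alike in that: of 1691 over all genes, 136 were in no list of replicate 2. In the pseudoreplicated lists 8 genes had a promoter peak in replicate 1 alone, or 14.3%, against 3.83% of all genes. They were Cxcr2, Ackr1, Ccl27a, Cxcl5, Cxcl12, Cxcr5, Ccr9 and Ccl6. None had a promoter peak in replicate 2 alone, against 2.30% of all genes. The lists differ in length: with the 22434 regions of highest signal from each IDR list, 5 genes had a peak in replicate 1 and 8 in replicate 2, against 40.9% and 45.6% of all genes. Those that differed were then Cxcl9, Cxcl10 and Cxcr3, all in replicate 2. The direction in the IDR lists thus turned when their lengths were made equal. The share of all genes that differed at equal length was not counted.

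Markers of mature myeloid cells differed between the libraries beside this. Of 12 granulocyte and monocyte markers, promoter peaks were found at 7 in replicate 1 and at 0 in replicate 2 by the IDR lists. The shares of all genes in those lists were 52% and 45.6%. The conservative list held 2 of the 12, against 51.5% of all genes. In the pseudoreplicated lists 9 had a promoter peak in replicate 1 and 3 in replicate 2, against 63.4% and 61.8% of all genes. The IDR lists differ in length, and these markers were not counted at equal length. S100a8, S100a9, Camp and Ngp, which encode neutrophil granule and cytosol proteins, had signals of 7.02, 6.02, 6.61 and 3.73 in replicate 1 and no peak in replicate 2. The granule protease genes Elane and Prtn3 had none in either library. In the conservative list promoter peaks were found for 2 of 6 B cell, 1 of 6 T cell, 1 of 6 NK cell, 2 of 6 dendritic, 2 of 6 erythroid, 5 of 6 megakaryocyte and 3 of 6 stromal and endothelial markers. The share of all genes in that list was 51.5%. The part of such cells in the values of the chemokine genes was not tested.

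Distal accessible regions, unlike promoter peaks, were at least as common around these genes as around genes in general. A distal region had its summit in no promoter window of any protein-coding gene and within 50 kb of a chemokine or receptor start site. In the conservative list 82 such regions lay near 44 of the 56 genes (78.6%), against 61.9% of all genes with a distal region in reach. The mean was 2.09 regions per gene, against 1.45 over all genes, and the median was 1 for both. Their median signal was 7.69, against 7.96 over all distal regions. Clustered genes share regions, and 27 of the 82 lay within 50 kb of several of the genes. For 46 of the 82 the nearest gene was one of the 56, 48 were intergenic and 25 lay in introns. Of the 31 genes with no promoter peak in any list, 20 had a distal region within 50 kb (64.5%, against 38.9% of all genes with no promoter peak in any list), and 11 were the nearest gene of one. Among those 11 were the receptors Cxcr1, Ccr2, Ccr4, Ccr6 and Ccr10 and the ligands Ccl1, Ccl5 and Ccl28.

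Fewer of the distal regions were found in the IDR list of replicate 2, the shorter one, than in that of replicate 1. Of the 82, 67 overlapped a region of the IDR list of replicate 1 (81.7%, against 79.6% of all distal regions). In the IDR list of replicate 2 the number was 40 (48.8%, against 55.8%). By the IDR lists 30 were in that of replicate 1 only (36.6%, against 29.4%) and 3 in that of replicate 2 only (3.66%, against 5.58%). Both IDR lists held 37 (45.1%, against 50.2%). With the pseudoreplicated lists counted too, 5 of the 82 were in no list of replicate 2 and 1 was in no list of replicate 1. The same count was not made over all distal regions, so these numbers have no background to be read against.

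The 4 distal regions of highest signal near these genes are given in the same form, as their signals in the conservative list exceed that of every promoter peak of the 56 genes. The names give the nearest of the 56 genes and the distance of the summit from its start site in bp, with + inside or downstream and − upstream. The capitals in the last mark the PU.1 letters GAGGAAGT, those of a factor of myeloid and stem cells. The Ccl28 stretch holds a 29 bp sequence repeated in tandem, the first copy from base 16 and the second from base 45 of the printed stretch. The other 3 distal stretches and the 4 promoter stretches above held no repeat longer than 7 bp.
Ccl28 +8109, chr13:119631878-119631978: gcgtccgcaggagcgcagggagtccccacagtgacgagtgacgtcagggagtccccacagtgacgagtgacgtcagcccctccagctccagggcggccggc
Cxcr1 −32882, chr1:74227463-74227563: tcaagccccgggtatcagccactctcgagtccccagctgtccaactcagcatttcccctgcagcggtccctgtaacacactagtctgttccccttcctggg
Ccl26 +26086, chr5:135537433-135537533: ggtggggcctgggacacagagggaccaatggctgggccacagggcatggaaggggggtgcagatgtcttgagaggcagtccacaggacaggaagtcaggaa
Cxcl5 −17145, chr5:90742183-90742283: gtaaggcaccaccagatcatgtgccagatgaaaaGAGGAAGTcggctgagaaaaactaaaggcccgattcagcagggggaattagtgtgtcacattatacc

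The strongest distal region lay in an intron of Ccl28, a mucosal ligand of Ccr10 whose own promoter had no peak. It spanned chr13:119631635-119632138, 8.1 kb from the start site, with a signal of 17.0, above 99.6% of all distal regions. Both libraries held it, at 18.9 in replicate 1 and 12.7 in replicate 2. The region 17.1 kb upstream of Cxcl5 (chr5:90741917-90742615) was the next for which one of these genes was the nearest. Its signal was 14.6, with 15.2 in replicate 1 and 12.3 in replicate 2. The Cxcl5 promoter had peaks in permissive lists only, at 3.68 in replicate 1 and, in another region, 3.42 in lists of both libraries. The regions 32.9 kb from Cxcr1 (17.0) and 26.1 kb from Ccl26 (15.2) were nearer to other genes, Arpc2 of the actin cytoskeleton and Hip1 of endocytosis, the latter in an intron of Hip1.

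The next regions by signal included introns of CC receptor genes without a promoter peak in the strict lists. A region in an intron of Ccr9 (chr9:123754352-123754844) lay 12.7 kb upstream of an internal start site and had a signal of 12.3, with 10.9 in replicate 1 and 9.30 in replicate 2. A region in an intron of Ccr2 (chr9:124112436-124112934), 7.1 kb from the start site, had 11.7, with 12.7 in replicate 1 and 6.90 in replicate 2. Both receptors thus had an intronic region in the IDR list of each library and a promoter peak in neither of these lists. The other 4 of the 10 highest lay near Ccl3 (11.5), Ccl25 (10.9), Ccl22 (10.9) and Cxcl10 (10.6, in an intron of Art3). Of these 4, the nearest gene was one of the 56 for Ccl25 alone.

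**Figure D3:**
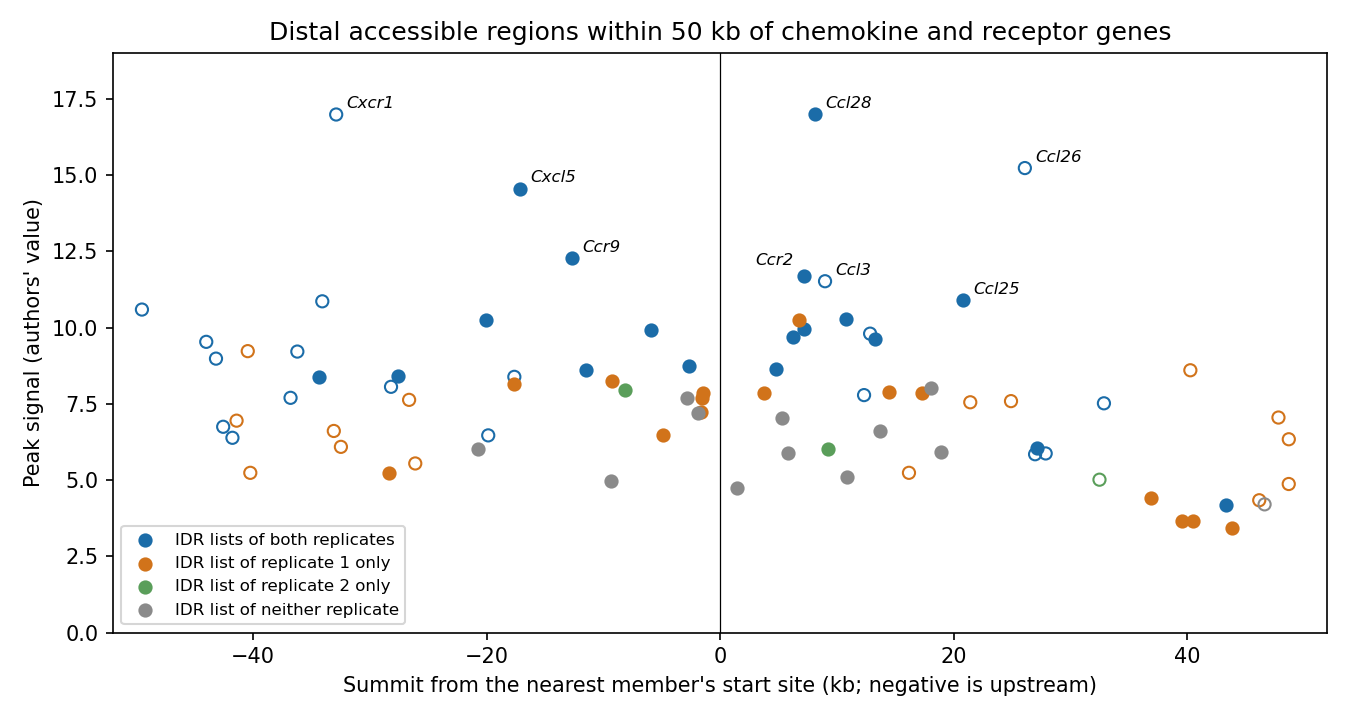
Authors' peak signal (vertical axis, no stated unit) of the 82 distal regions against the distance of the summit from the nearest chemokine or receptor start site (kb, negative upstream). Filled points have one of the 56 genes as nearest gene and open points another gene. Colours give the IDR lists that hold the region, and the 8 highest are named. The regions near Ccl28 and Cxcr1 lead at 17.0, and 30 points are in the IDR list of replicate 1 but not in that of replicate 2.

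Regions were unevenly spread over the genes. Reach was counted from every start site, so genes with start sites far apart were searched over a wider span. Cxcr5, which has 4 start sites, had the most, with 10 regions within 50 kb, of which it was the nearest gene of 5. The strongest of them had a signal of 9.93, with 9.91 in replicate 1 and 8.55 in replicate 2, and the weakest had 4.203. Ccr1, which has 1 start site, followed with 8 regions and was the nearest gene of 7. Most of those were weak, at 3.42 to 8.38 over the 8 regions. Cxcl10 had 6 and Cxcr1, Cxcr2, Cxcl9, Ccl22 and Ccl6 had 5 each. Ccl5, Ccl9 and Cx3cr1 had 4 each. In the conservative list no distal region lay within 50 kb of 12 genes: Ackr3, Cxcr6, Cxcl13, Cxcl14, Cxcl16, Ccl8, Ccl11, Ccl12, Ccl19, Ccl21a, Ccl21b and Ccl27b. Ackr3 was the only one of them with a promoter peak in that list, and it had 2 distal regions in the IDR list of replicate 2. Cxcl16 had 3 and Ccl11 had 1 by the IDR list of replicate 1, and Cxcr6 had 1 by that of replicate 2.

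The chromosomal clusters differed in the same way. The monocyte and eosinophil attractant cluster from Ccl2 to Ccl1 on chromosome 11 holds 6 genes. It had 1 promoter peak, at Ccl2, and 2 distal regions. The neighbouring cluster from Ccl5 to Ccl4 holds 5 genes, with 2 promoter peaks and 5 distal regions. Its regions downstream of Ccl9 and upstream of Ccl5 had signals of up to 9.68 and 10.3. The neutrophil attractant cluster from Cxcl5 to Cxcl2 on chromosome 5 holds 5 genes and had 1 promoter peak in the conservative list, 4 in the pseudoreplicated list of both libraries, and 5 distal regions. The pair Cxcl9 and Cxcl10 had a promoter peak at both genes and 7 distal regions, of which the IDR list of replicate 1 held 6 and that of replicate 2 held 1. The chromosome 4 ligands from Ccl27a to Ccl21a, the 5 genes with promoter copies, had no promoter peak in the conservative list and 1 distal region.

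Promoters of these genes were poor in CpG, a property read from the reference sequence. The median ratio of observed to expected CpG in the window of 500 bp on each side of the 5′-most start site was 0.213 for the 56 genes, against 0.561 for all genes. It was 0.308 for the 12 with a promoter peak and 0.195 for the other 44. When all genes were split into 3 classes of equal size by this ratio, 42 of the 56 fell in the lowest. There 6 of the 42 had a promoter peak (14.3%, 95% Wilson interval 6.72 to 27.8%), against 13% of all genes of that class. They were Ccl2, Ccl3, Ccl4, Ccl24, Cx3cr1 and Cxcr3. In the middle class 5 of 10 had one (Ackr3, Cxcl2, Cxcl9, Cxcl10 and Cx3cl1), or 50%, against 58.9%. In the highest class 1 of 4 had one (Ccl25 of Ccl25, Ccr9, Cxcl12 and Cxcl14), against 82.6%. In the lowest and middle classes the share of all genes thus lay within the counting interval of the chemokine genes, and in the highest class it lay above it (4.56 to 69.9%).

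**Figure D4:**
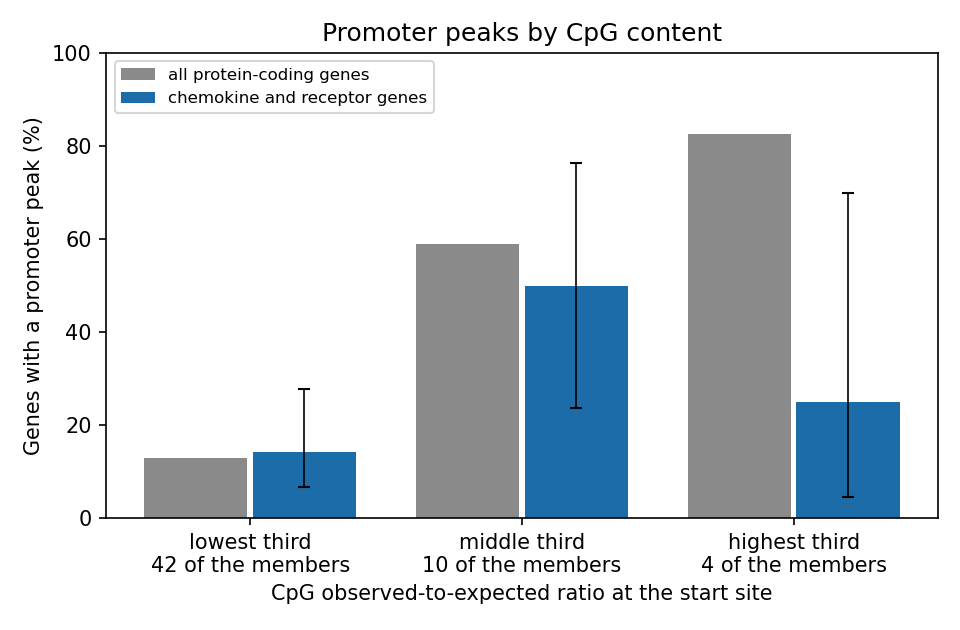
Share of genes with a promoter peak in the conservative list (%, vertical axis) in 3 equal classes of genes by the CpG observed-to-expected ratio. Grey bars are all protein-coding genes and blue bars the 56 chemokine and receptor genes with 95% Wilson intervals; the 2 bars are close in the lowest class (13 and 14.3%), which holds 42 of the 56.

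Motif letters were searched on both strands from 100 bp before to 100 bp after each summit. The letters were GAGGAAGT for PU.1, CCGGAAGT for other ETS factors (sharing GGAAGT with PU.1), TGTGGTTT for RUNX, AGATAA for GATA factors, TGANTCA for AP-1, TTGCNNAA for C/EBP and TATAAA for the TATA box. NF-kappaB was searched as GGG and TTTCC parted by any 2 bases, the interferon response element as a pair of GAAA parted by any 2 bases, and CTCF as CC and AGGGGGC parted by any 3 bases. In the 12 promoter windows PU.1 matched at Ccl24 and Cxcr3 (2 of 12, against 3.28% of all promoter regions). TATA matched at Ackr3 and Cx3cl1 (2 of 12, against 2.68%). Single matches were found for NF-kappaB at Ccl2 (1.24% of all), AP-1 (3.30%) and GATA (2.59%) at Cxcl10, and RUNX (1.21%) and C/EBP (5.24%) at Ackr3. ETS, the commonest of the set in promoters at 7.39% of all, matched in none, and neither did the interferon response element (1.92%) or CTCF (2.41%). In the 82 distal windows PU.1 matched in 12 (14.6%, against 10.4% of all distal regions), AP-1 in 8 (9.76 against 10.04%), GATA in 7 (8.54 against 8.71%), C/EBP in 6 (7.32 against 9.15%) and RUNX in 5 (6.10 against 6.60%). CTCF matched in 5 (6.10 against 4.13%), NF-kappaB in 4 (4.88 against 1.49%), TATA in 4 (4.88 against 5.86%), ETS in 2 (2.44 against 0.803%) and the interferon response element in 0 (against 3.60%). A match describes letters only, and with counts this small most shares rest on a few windows.

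The matches outside untranslated sequence are printed with their flanks, chosen after the matches were known. All are on the + strand of mm10, with the match in capitals, and those read on the − strand appear as their complement. The Ackr3 C/EBP match began 47 bp upstream of the 5′-most start site. The NF-kappaB match of Ccl2 lay 146 bp upstream, the PU.1 match of Ccl24 79 bp upstream, and the Cxcl10 matches 68 bp (AP-1, printed with the promoter) and 17 bp (GATA) upstream.
Ackr3 C/EBP, chr1:90203913-90203960: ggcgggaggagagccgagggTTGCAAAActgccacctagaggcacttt
Ccl2 NF-kappaB (−), chr11:82035405-82035454: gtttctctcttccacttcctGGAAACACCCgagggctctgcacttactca
Cxcl10 GATA (−), chr5:92348890-92348931: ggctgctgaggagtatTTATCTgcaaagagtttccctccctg
Ccl24 PU.1 (−), chr5:135573108-135573155: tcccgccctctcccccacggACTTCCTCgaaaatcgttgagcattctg

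Most genes that act downstream of chemokine receptors had a promoter peak. Of 35 genes of receptor signalling and migration, 29 had a promoter peak in the conservative list (82.9%, against 51.5% of all genes). The IDR list of replicate 1 called 31, against 52% of all genes, and that of replicate 2 called 25, against 45.6%. All 35 had one in the pseudoreplicated list of both libraries, against 66% of all genes. The highest were Rgs18, a brake on G protein signalling (13.96, with 13.54 in replicate 1 and 12.03 in replicate 2), and Pak1, a kinase of actin remodelling (13.8, with 13.7 and 11.6). Gnai3, an inhibitory G protein subunit, had 12.7, with 13.1 and 10.05. Cdc42, a GTPase of cell polarity, had 12.4, with 13.4 and 9.72, and Was, an actin regulator of blood cells, had 12.2, with 13.9 in replicate 1 and 7.14 in the pseudoreplicated list of replicate 2. In the conservative list each of these 5 was above the highest promoter signal of the 56 genes, 10.7 at Ccl25. The median of the 29 was lower, at 8.08, against 9.81 over all genes with a promoter peak. Pathway genes comprise these 35 and the 7 further family genes named below. Of these 42, 13 kept a peak above the median signal of the list (31.0%, against 35.0% of all genes).

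The 6 signalling genes without a promoter peak in the conservative list were Gnai1, Gnb1, Rac1, Grk2, Grk3 and Plcb3. Gnai1, Gnb1 and Rac1, which encode G protein subunits and a GTPase of migration, were in the IDR list of replicate 1 at 5.44, 6.77 and 6.19. The receptor kinase gene Grk3 was in the less strict IDR list of both libraries and, at 5.28, in the pseudoreplicated list of replicate 1. The phospholipase gene Plcb3 was only in permissive lists, at 4.53 in replicate 1. The receptor kinase gene Grk2 was only in permissive lists made from both libraries, at 3.37 in the pseudoreplicated one. Of 7 further genes of the chemokine family, 3 (42.9%) had a promoter peak in the conservative list, against 51.5% of all genes. They were the platelet chemokine Pf4 (7.69), the chemerin receptor Cmklr1 (7.203) and its atypical relative Ccrl2 (5.25). The platelet chemokine Ppbp, the ligand Xcl1 and its receptor Xcr1, and Ccr1l1 had none in any list. Pf4 was in the IDR lists of both libraries, at 9.68 in replicate 1 and 6.38 in replicate 2.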

How the data were processed

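The members and lists were chosen with earlier results of these data known, so counts are descriptions without a test. The processed data are ENCODE peak lists in mm10 coordinates, per the labels. No source used here gives the aligner, the peak caller or the handling of the transposase offset. Each peak has a signal set by the authors, whose control and scaling are not stated, and a deposited summit offset in bases. Depth per library is not given in the peak lists. Each replicate's lists come from that library alone, and the other lists from both. Ranked lists were not used.

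Overlapping peaks (at least 1 base) of a list were merged, and the strongest peak gave the region its summit and signal. The annotation was GENCODE M21, with 21853 protein-coding genes on 21 chromosomes. Distal regions that overlapped a list by at least 1 base counted as in it. Intervals are 95% Wilson intervals. Clusters joined members within 500 kb. Promoter copies were searched with blastn 2.17.0, and sequences read with pysam 0.24.0. Counting was tested on simulated data.

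Named were all members by group, with full values for those with a promoter peak in a strict list, the 10 with most distal regions and the 10 distal regions of highest signal. Of the pathway list the 5 of highest signal and those without a peak were named. Other members' values, markers and match windows were chosen after their values were seen. Alternatives were other lists, each replicate alone, a signal minimum, other windows and start sites, overlap in place of summits, and equal numbers of regions. After the data were seen, leaving out shared promoters or the chromosome 4 ligands with copies was added. Values of some genes are not reported here.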

Additional observations from a re-analysis of the deposited data

How the results depend on the processing

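Of 68 alternatives tried on the counts and medians, 45 kept the value within 1.5 times (for the median, within 1 SD of the values of the 2 replicates) and 23 did not. Without either library in turn, the median promoter signal of 7.46 ranged from 7.30 to 7.93. In the replicated and pseudoreplicated lists of both libraries, promoter peaks were found at 23 and 25 genes in place of 12, at 9 and 9 receptors in place of 3, and at 14 and 16 ligands in place of 9. The shares of all genes in those lists were 64.9% and 66.0%. The median promoter signal was then 6.18 and 4.82 and the distal regions 233 and 284 in place of 82; in the less strict IDR list of both libraries the median was 6.87. The 12 genes of the conservative list kept the same signal in each of these lists of both libraries. The longer lists added weaker peaks. Their lowest signals were 4.15 (less strict IDR), 3.36 (replicated) and 3.20 (pseudoreplicated), against 4.82 in the conservative list. The replicates' own lists gave other values, and their scaling is not stated. With regions above the median signal only, 4 genes, 1 receptor, 3 ligands, 13 pathway genes in place of 32 and 29 distal regions were left. The share of all genes with a promoter peak was then 35.0%, against 31.0% of the pathway genes. A promoter window of 2500 bp gave 6 receptors (30%, against 54.6% of all genes), adding Ccr3, Ccr10 and Cxcr1. Within 20 kb there were 40 distal regions, near 29 genes in place of 44. Genes with a promoter peak in 1 replicate only numbered 5 in the IDR lists, 8 in the pseudoreplicated lists, 3 with equal numbers of regions and 0 when absence was asked of both lists of the other replicate. By that last rule the shares of all genes were 0.62% for replicate 1 and 0.055% for replicate 2. In every list tried, the share of the 56 genes with a promoter peak was below the share of all genes. No paired analysis was possible because the series has 1 group. The depth of the libraries is unknown, which limits what a missing peak shows.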
